A study of Rattus norvegicus with 9 samples.

Results

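The erythroid genes Hbb, Hba1, Ahsp, Alas2, Slc4a1, Epb42, Rhag, Klf1 and Hemgn were followed through 9 RNA-Seq libraries of rat dorsal root ganglia (DRGs). They are 9 of the 20413 genes in the deposited table, found by their symbols, and each had 1 row. The table gives FPKM, in which the fragments of a gene are divided by its length in kilobases and by the size of the library. All 9 had a mean FPKM of at least 0.1 and so stayed among the 17187 genes that were tested. They were read library by library, as genes best known from red cells and their precursors. Globin transcripts have also been described in neurons and glia.

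The libraries came from male Sprague Dawley rats of 8 to 10 weeks, with 1 rat per library and 3 libraries in each of 3 groups. Sham rats (labelled Con) were anesthetized and had a cut O-ring around the ankle that left the blood flow open. CPIP (chronic post-ischemia pain) rats had the blood flow of a hind paw stopped by a tight O-ring for 3 h under the same anesthesia, and then restored. CPIP+EA rats had the same ischemia and then received 100 Hz electroacupuncture (EA) on both sides once a day for 10 days. In all groups the rats were perfused through the heart with cold saline on day 10, and the L4-6 DRGs of the side of the ischemia were then taken. Libraries are named below by group and replicate number, as in Sham 2. The order of values in a sentence is always replicate 1, 2 and 3.

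In the bone marrow, erythroid precursors divide, fill with hemoglobin and lose the nucleus, and the reticulocytes that enter the blood still hold globin RNA. Hemoglobin is built from alpha and beta globin chains and heme. The nuclear factor Klf1 switches on many genes of this program, often together with Gata1. Gata1 binds GATA letters in DNA and Klf1 binds CACC-type letters. Sensory ganglia have many small blood vessels and lie within the vertebral column, whose bones hold marrow.

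The stretches before the start sites of these genes are shown because the genes varied together between libraries and because Klf1 is itself one of them. Whether the letters bear on that variation was not tested. Start sites and letters are from RefSeq (GRCr8). Matched by gene ID, 7 of the 9 members had a start site there, with 8 windows in all since Hemgn had 2, and Ahsp and Slc4a1 had none. Each run is the 250 bases before the start site, 5′ to 3′ on the strand of the gene, in lower case. Capitals mark a GATA match (AGATAA or TGATAA or AGATAG or TGATAG) or a CACC match (CCNCNCCC), searched on both strands, so that a match on the opposite strand appears as its reverse complement. The GATA and CACC matches did not overlap each other. The windows are chr1:167663722-167663971 for Hbb, chr10:15842581-15842830 for Hba1, chr19:40158652-40158901 for Klf1 and chr9:27594391-27594640 for Rhag, all on the minus strand.
Hbb: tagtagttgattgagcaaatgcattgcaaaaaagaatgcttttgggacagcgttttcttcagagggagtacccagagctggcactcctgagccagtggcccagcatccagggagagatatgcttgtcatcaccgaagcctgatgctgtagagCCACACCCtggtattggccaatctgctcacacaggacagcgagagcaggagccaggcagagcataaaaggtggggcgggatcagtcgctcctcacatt
Hba1: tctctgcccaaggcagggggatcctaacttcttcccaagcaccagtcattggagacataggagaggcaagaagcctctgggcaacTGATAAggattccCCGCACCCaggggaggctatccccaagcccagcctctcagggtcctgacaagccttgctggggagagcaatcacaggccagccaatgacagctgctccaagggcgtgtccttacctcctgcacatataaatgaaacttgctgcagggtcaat
Klf1: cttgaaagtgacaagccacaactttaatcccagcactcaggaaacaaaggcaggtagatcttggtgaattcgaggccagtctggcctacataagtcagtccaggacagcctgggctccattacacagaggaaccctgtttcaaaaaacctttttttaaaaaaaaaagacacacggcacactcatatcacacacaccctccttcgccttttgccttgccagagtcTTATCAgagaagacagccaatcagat
Rhag: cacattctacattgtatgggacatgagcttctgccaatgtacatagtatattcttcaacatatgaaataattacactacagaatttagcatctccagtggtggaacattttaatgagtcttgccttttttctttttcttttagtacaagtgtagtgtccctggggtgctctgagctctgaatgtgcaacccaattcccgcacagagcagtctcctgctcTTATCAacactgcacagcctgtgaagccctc

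The Hbb window held a CACC match that began 98 bases before the start, and no GATA match. Among the 8 windows, that of Hba1 was the only one with both, a GATA match at 165 and a CACC match at 152 bases before the start. Klf1 and Rhag had a GATA match on the opposite strand, at 26 and 31 bases before the start. Of the windows not printed, that of Alas2 had AGATAA at 136 and that of Epb42 AGATAG at 82 bases before the start, while Hemgn had a CACC match in 1 window and 2 GATA matches in the other. GATA letters were in 6 of the 8 windows (75.0%), against 27.0% of the 33469 windows of all genes. CACC letters were in 3 of 8 (37.5%), against 42.8%, and both kinds were in 1 of 8 (12.5%), against 7.57%. A match describes letters and not a bound factor.

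Both globin genes were abundant in every ganglion library. Hbb (gene ID 24440), which encodes the beta chain, had 432.41, 1362.95 and 793.15 FPKM in Sham, 532.22, 776.50 and 240.86 in CPIP, with 242.55, 877.16 and 2292.08 in CPIP+EA. Hba1 (25632), which encodes the alpha chain, had 637.31, 1912.31 and 981.26 FPKM in Sham, 722.11, 1359.74 and 318.60 in CPIP, with 377.66, 1105.16 and 2678.75 in CPIP+EA. In both genes CPIP+EA 3 was the highest library and Sham 2 the next, CPIP 3 was the lowest and CPIP+EA 1 the next, and the 3 groups overlapped. The highest library stood 9.52-fold above the lowest for Hbb and 8.41-fold for Hba1.

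Ahsp (293522), the chaperone that holds free alpha chains until they meet beta chains, was the most abundant member after the globins. It had 4.68, 34.65 and 9.90 FPKM in Sham, 8.26, 14.49 and 4.50 in CPIP, with 3.65, 13.53 and 40.11 in CPIP+EA. Only Sham 2 and CPIP+EA 3 were above 14.49 FPKM, and the groups overlapped. Alas2 (25748), the erythroid enzyme of the first step of heme synthesis, had 4.63, 16.54 and 8.24 FPKM in Sham, 5.10, 8.59 and 1.87 in CPIP, with 3.15, 9.81 and 20.61 in CPIP+EA. Its 2 highest and 2 lowest libraries were those of Hbb, in the same order.

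Slc4a1, Epb42 and Rhag encode proteins of the red cell membrane. Slc4a1 (24779) encodes band 3, the anion exchanger that also anchors the membrane skeleton, and had 3.11, 18.20 and 4.99 FPKM in Sham, 4.77, 7.67 and 1.57 in CPIP, with 2.10, 6.11 and 17.26 in CPIP+EA. Epb42 (362202) encodes protein 4.2, which binds band 3, and had 0.72, 2.99 and 1.10 FPKM in Sham, 1.23, 1.01 and 0.40 in CPIP, with 0.62, 1.14 and 3.13 in CPIP+EA. Rhag (65207) encodes the glycoprotein that carries the Rh complex to the membrane, and had 0.81, 3.07 and 0.77 FPKM in Sham, 1.15, 0.97 and 0.54 in CPIP, with 0.56, 1.29 and 2.75 in CPIP+EA. In each of these genes the 7 libraries other than Sham 2 and CPIP+EA 3 lay in a narrower band, up to 7.67 FPKM for Slc4a1, 1.23 for Epb42 and 1.29 for Rhag. Among these 7 the highest library was 4.89, 3.07 and 2.39-fold above the lowest for the 3 genes.

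Klf1 and Hemgn encode nuclear proteins of precursor cells. Klf1 (304666), the transcription factor named above, had 1.25, 4.49 and 1.33 FPKM in Sham, 1.45, 2.04 and 0.77 in CPIP, with 1.08, 1.78 and 4.48 in CPIP+EA. Hemgn (113882), a nuclear protein of hematopoietic cells, had 1.05, 9.20 and 1.92 FPKM in Sham, 1.89, 2.93 and 0.47 in CPIP, with 0.67, 2.36 and 7.78 in CPIP+EA. Sham 2 was the highest library for both, by a margin of 0.01 FPKM over CPIP+EA 3 for Klf1. Hemgn had the widest range of the 9 genes, 19.6-fold between Sham 2 and CPIP 3, and Rhag the narrowest, 5.69-fold. Leaving aside Sham 2 and CPIP+EA 3, the ranges were 2.39 to 6.23-fold.

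**Figure D1:**
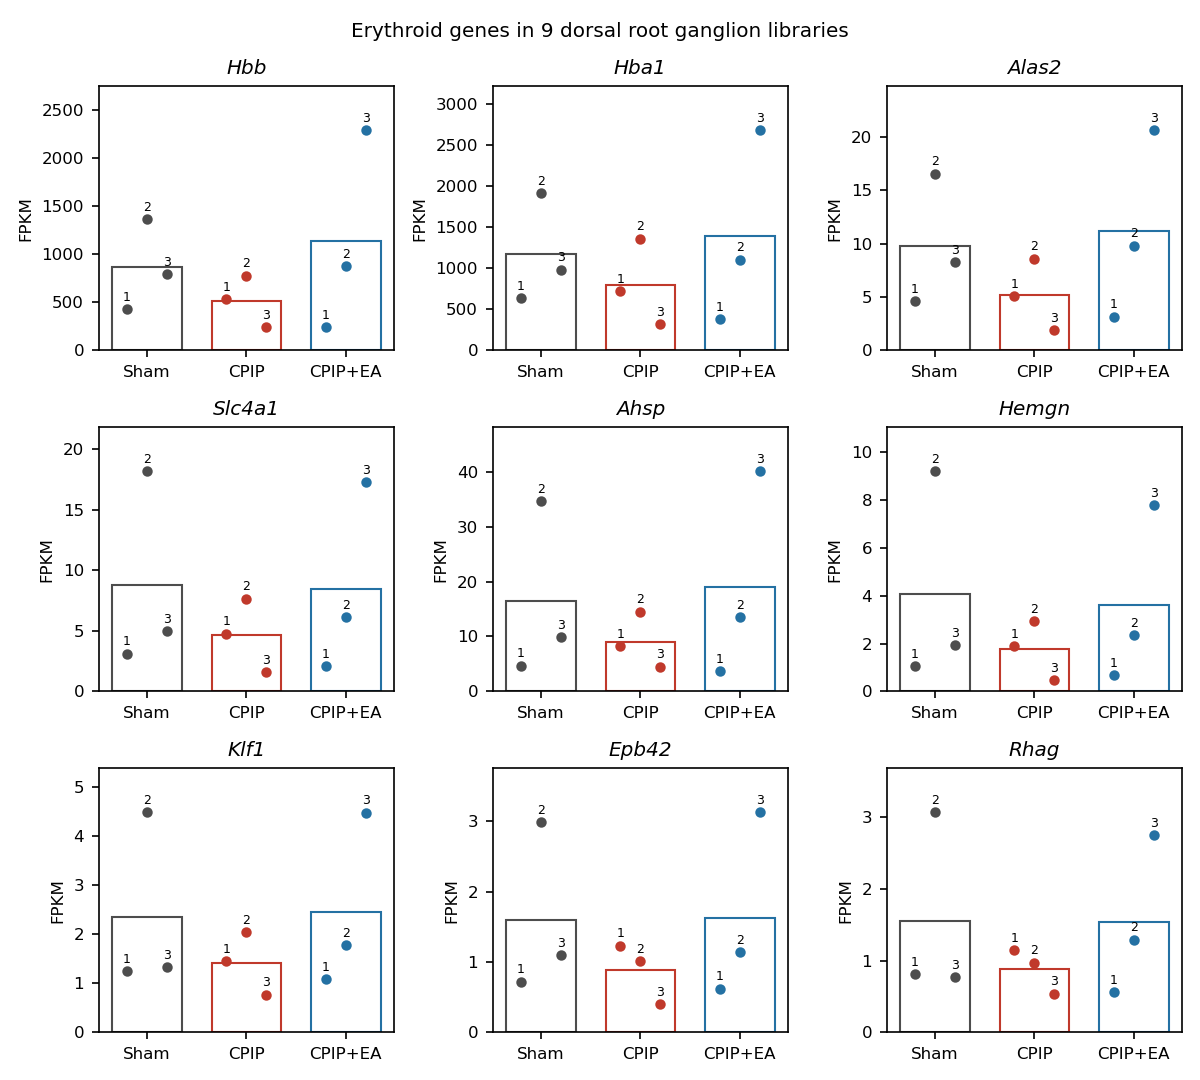
FPKM of each of the 9 erythroid genes (vertical axes, linear from 0, each panel on its own scale) in the Sham, CPIP and CPIP+EA groups, with a point for each library, its replicate number above it and an open bar for the mean of 3. Sham 2 and CPIP+EA 3 are the 2 highest points of every panel, as for Hbb with 1362.95 and 2292.08 FPKM, and the groups overlap in all panels.

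Taken per length, the mean FPKM over the 9 libraries ordered the genes as Hba1 (1121), Hbb (838.9), Ahsp (14.86), Alas2 (8.727), Slc4a1 (7.309), Hemgn (3.141), Klf1 (2.074), Epb42 (1.371) and Rhag (1.323). The means spanned 847-fold. Hba1 was above Hbb, Ahsp above Alas2, Slc4a1 above Hemgn and Klf1 above Epb42 in every library. Hemgn was below Klf1 in Sham 1, CPIP 3 and CPIP+EA 1, the libraries with little of both, and above it in the other 6. Alas2 and Slc4a1 changed places in Sham 2 only, where Slc4a1 had 18.20 and Alas2 16.54 FPKM. Epb42 and Rhag were not separated, since Rhag was the higher in Sham 1, Sham 2, CPIP 3 and CPIP+EA 2 and Epb42 in the other 5 libraries.

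In all 9 genes the 2 highest libraries were Sham 2 and CPIP+EA 3, and the 2 lowest were CPIP 3 and CPIP+EA 1. Of the 17187 genes tested, 877 (5.1%) had this pair at the top and 750 (4.36%) had this pair at the bottom. CPIP+EA 3 was the highest library for 5 of the 9 genes and Sham 2 for the other 4. Of all tested genes, 3586 were highest in CPIP+EA 3, 1518 in Sham 2 and 1469 in CPIP 2, a background that also bears on the counts of this kind given for gene lists. The summed FPKM of the 9 genes was 1086, 3364 and 1803 in Sham, 1278, 2174 and 569.6 in CPIP, with 632.0, 2018 and 5067 in CPIP+EA. The library with the most, CPIP+EA 3, thus held 8.90 times the sum of CPIP 3, and the genes took 1.05% of all FPKM in the former and 0.123% in the latter. In the 36 pairs of these genes, log2(FPKM + 0.5) over the 9 libraries had a Pearson r of 0.875 to 0.997, a description of points that share a library.

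The genes did not keep 1 fixed proportion. Sham 2 had a smaller globin signal than CPIP+EA 3, at a ratio of 0.595 for Hbb and 0.714 for Hba1. The ratio was 0.803 for Alas2, 0.864 for Ahsp and 0.955 for Epb42, and Klf1 was nearly equal in both. For Slc4a1, Rhag and Hemgn it was above 1, at 1.05, 1.12 and 1.18. The globins and the genes of heme and globin assembly were thus the higher in CPIP+EA 3, and the membrane and nuclear genes were nearly equal in the 2 libraries or higher in Sham 2.

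Each gene was also set against Hbb in the same library. Hemgn had 6.75 FPKM per 1000 FPKM of Hbb in Sham 2 and between 1.951 (CPIP 3) and 3.773 (CPIP 2) in the other 8 libraries. Slc4a1 had 13.35 in Sham 2 and between 6.291 (Sham 3) and 9.878 (CPIP 2) elsewhere, and Ahsp had 25.42 in Sham 2 and between 10.82 (Sham 1) and 18.68 (CPIP 3) elsewhere. Sham 2 was therefore the highest library in these 3 ratios. Klf1, Epb42, Rhag and Alas2 were instead highest in CPIP+EA 1, the library with the second lowest Hbb, at 4.453, 2.556, 2.309 and 12.99 per 1000 FPKM of Hbb. Alas2 was lowest in CPIP 3 at 7.764, and Hba1 lay between 1169 and 1751, the narrowest ratio of the 8, with a highest library 1.5 times the lowest. With 2 decimals in the table and levels near 1 FPKM in the libraries with little Hbb, the ratios of Hemgn, Klf1, Epb42 and Rhag there are the least precise.

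**Figure D2:**
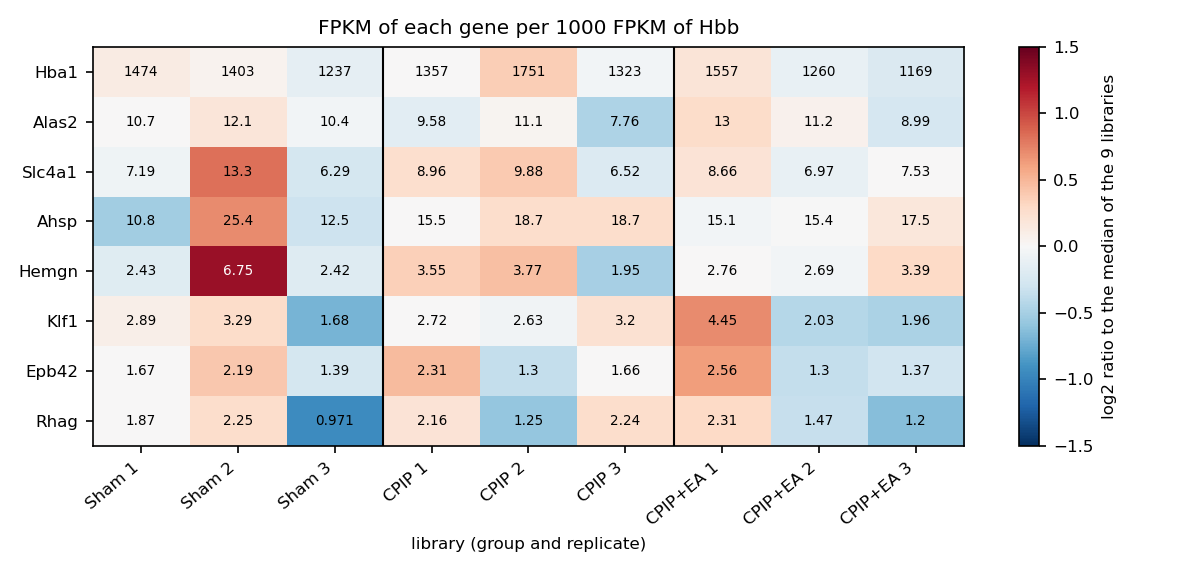
FPKM per 1000 FPKM of Hbb for the 8 other erythroid genes (rows) in the 9 libraries (columns), with the value in each cell and the color giving the log2 ratio to the median of the row. Sham 2 stands out with 6.75 for Hemgn, 13.3 for Slc4a1 and 25.4 for Ahsp, and CPIP+EA 1 with 4.45 for Klf1.

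The question of the design is whether these genes differed between rats with and without the ischemia, and between treated and untreated CPIP rats. For the 9 genes the replicates of a group were too far apart to show a difference between groups. Tests were made with limma on log2(FPKM + 0.5) over all tested genes, and a gene was called where it differed by 1.5-fold or more, in either direction, and its Benjamini-Hochberg adjusted p was below 0.01. The numbers of genes called, below an unadjusted p of 0.05 or without overlap between the groups were 0 of 9 in each of the 3 comparisons. Of all tested genes, 0.355% were called between CPIP and Sham, 0% between CPIP+EA and CPIP and 0.483% between CPIP+EA and Sham. The shares with an unadjusted p under 0.05 were 8.66%, 4.29% and 12.2%, and those without overlap 15.9%, 8.23% and 16.2%. As the genes vary together over the same libraries, their 9 tests are not separate pieces of evidence. The 3 comparisons also share libraries, and the study itself drew gene lists that include members from these same libraries.

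Between CPIP and Sham, all 9 genes had a lower fitted level in CPIP. Their median log2 fold change was -0.64, against -0.01 over all genes tested, and none passed the test. Mean Hbb was 862.8 ± 469.2 FPKM in Sham and 516.5 ± 268.2 in CPIP (SD, n = 3 each). Its log2 fold change was -0.74 (standard error 0.78, 95% interval -2.5 to 1.01, limma adjusted p of 0.91). Alas2 had the lowest fold change of the 9, with 9.803 ± 6.107 FPKM in Sham and 5.187 ± 3.361 in CPIP (SD, n = 3 each) and a log2 value of -0.89 (95% interval -2.48 to 0.71, limma adjusted p of 0.86). Rhag had the one nearest to 0, -0.41, with 1.550 ± 1.317 and 0.8867 ± 0.3134 FPKM (SD, n = 3 each). The intervals run from a 4-fold or larger decrease to an increase in 6 genes and are narrower for Klf1, Epb42 and Rhag. These are the genes with the lowest means, where the 0.5 FPKM added before the log2 makes differences and spread smaller. With 0.1 FPKM added in its place, Rhag had -0.52, Epb42 -0.68 and Ahsp -0.52. Without Sham 2 the median was 0.00, the values of Slc4a1 (0.0049), Ahsp (0.24), Hemgn (0.04), Klf1 (0.04) and Rhag (0.08) were above 0, and those of Hbb (-0.34), Hba1 (-0.22), Alas2 (-0.44) and Epb42 (-0.07) were below 0. Without CPIP 3 the median was -0.21, with -0.27 for Hbb, -0.10 for Hba1 and -0.36 for Alas2. It was farther from 0 without Sham 1 (-1.14) and without CPIP 2 (-1.11), where Hba1 was -1.15 and Alas2 -1.33.

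Between CPIP+EA and CPIP, all 9 genes had a higher fitted level in CPIP+EA. Their median log2 fold change was 0.60, against 0.01 over all genes tested, and again none passed the test. Mean Hba1 in CPIP was 800.1 ± 524.9 FPKM, and that in CPIP+EA 1387 ± 1176 FPKM (SD, n = 3 each). Its log2 fold change was 0.61 (standard error 0.75, 95% interval -1.07 to 2.30). Ahsp, with 9.083 ± 5.046 and 19.10 ± 18.86 FPKM (SD, n = 3 each), had a log2 fold change of 0.62 (95% interval -1.39 to 2.62), and Alas2, the largest, had 0.91 (95% interval -0.69 to 2.5). The limma adjusted p was 0.996 for each of the 9 genes. Without CPIP+EA 3 the median was -0.01, and Hbb (-0.01), Hba1 (-0.07), Slc4a1 (-0.11), Ahsp (-0.19) and Hemgn (-0.13) were below 0. Without CPIP+EA 1 the median was 1.29, so that 1 library of 3 moved it in either direction.

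Between CPIP+EA and Sham, the log2 fold changes lay between -0.13 for Hemgn and 0.11 for Ahsp, with a median of 0.02, against 0.0014 over all genes tested, and the limma adjusted p lay between 0.98 and 0.996. Hemgn had 4.057 ± 4.475 FPKM in Sham and 3.603 ± 3.714 in CPIP+EA, and Klf1 had 2.357 ± 1.848 and 2.447 ± 1.795 (SD, n = 3 each). The 95% intervals were wide, -2.04 to 1.78 for Hemgn and -1.09 to 1.21 for Klf1, and do not show that the groups had the same level. The median was -0.70 without CPIP+EA 3 and 0.59 without CPIP+EA 1.

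**Figure D3:**
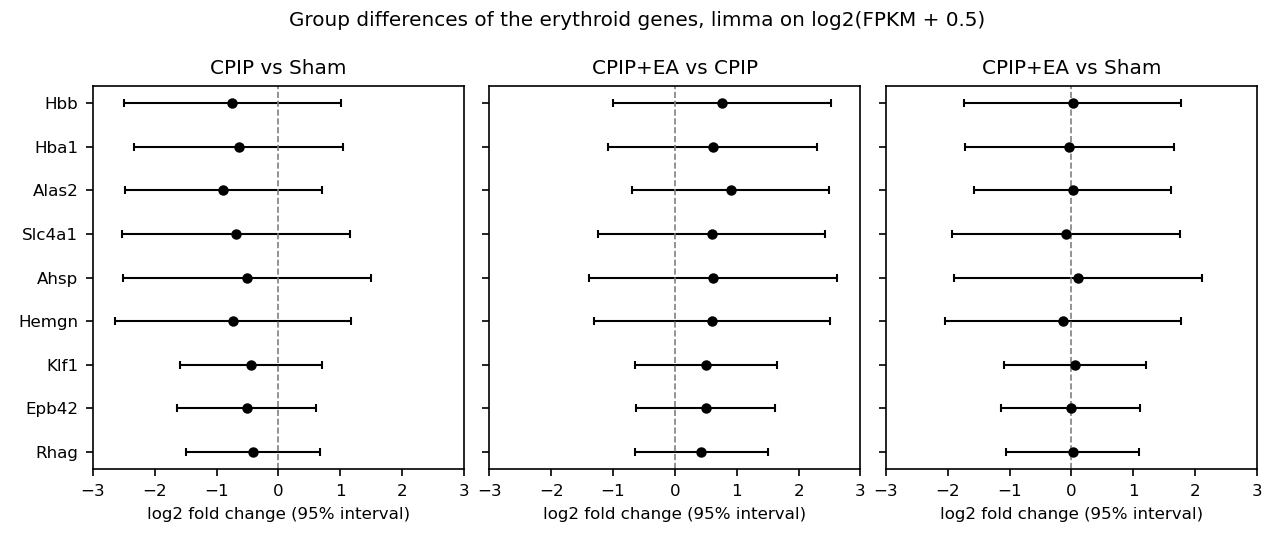
Log2 fold change of the 9 erythroid genes (points) with the 95% interval of the limma fit (bars) for CPIP vs Sham, CPIP+EA vs CPIP and CPIP+EA vs Sham. Every interval includes 0 (dashed line), as for Hbb between CPIP and Sham, with -2.5 to 1.01.

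**Figure D4:**
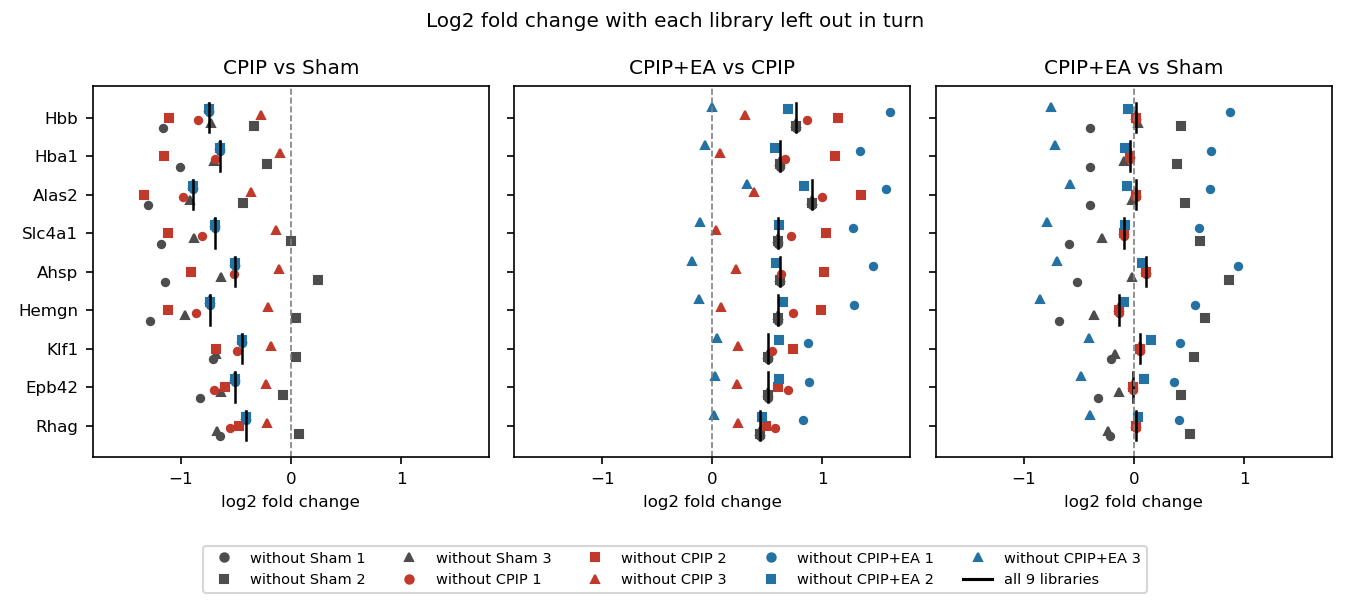
Log2 fold change of the 9 genes with all 9 libraries (black bars) and with each library left out in turn (symbols, by group and replicate) in the 3 comparisons. Without Sham 2 the CPIP vs Sham values of 5 genes cross 0 (dashed line), and without CPIP+EA 3 the CPIP+EA vs CPIP values of 5 genes do.

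Most of the variation of these genes lay within the groups. The share of the variance of log2(FPKM + 0.5) that lay between the 3 groups was 5.79% for Ahsp to 19.4% for Alas2, and its median over all tested genes was 23.9%. The SD within groups was 0.706 (Rhag) to 1.33 (Ahsp) on the log2 scale, against a median of 0.141. It was larger than that of 97.7% of the tested genes for Rhag and of 99.6% for Ahsp. For genes as low as Rhag the added 0.5 FPKM makes this SD smaller. In Sham, which had neither ischemia nor EA, Hbb spanned 3.15-fold between libraries, and it spanned 3.22-fold in CPIP and 9.45-fold in CPIP+EA.

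Other genes of the erythroid program were read from 5 lists, 63 tested genes in all, of which 0 were called in any comparison. The list of other globin genes had 12 rows in the table. Its most abundant rows were Hba2, with 279.58, 856.99 and 441.31 FPKM in Sham, 312.31, 644.09 and 145.15 in CPIP, with 156.10, 522.62 and 1222.77 in CPIP+EA, and LOC103694857, with 64.83, 244.98 and 68.67, then 40.82, 83.72 and 39.08, then 41.88, 90.68 and 185.53. Hba2 followed Hba1 in its order at both ends, whereas LOC103694857 was highest in Sham 2. The rows LOC100134871 (4.46 FPKM in CPIP 3, 75.80 in Sham 2 and 245.99 in CPIP+EA 3) and Hbb-b1 (7.24 in CPIP 1, 100.56 in Sham 2 and 30.67 in CPIP+EA 3), chosen after their values were seen, did not share an order. Hbb-b1 was the only row of the list with an unadjusted p under 0.05, between CPIP and Sham (log2 fold change -1.72, limma adjusted p of 0.46).

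The adult globin rows are near-identical copies, between which the counting of reads may have divided fragments in a way that differs between libraries, so single rows are uncertain. Sums were made over 3 alpha rows (Hba1, Hba2 and Hba-a1) and 4 beta rows (Hbb, Hbb-b1, LOC689064 and LOC100134871), leaving out LOC103694855 and LOC103694857. The ratio of alpha to beta was then 1.53 (CPIP+EA 3) to 2.32 (CPIP 2). The rows left out reached 79.76 FPKM (LOC103694855, CPIP+EA 3) and 244.98 FPKM (LOC103694857, Sham 2), so this ratio does not cover all globin rows. The embryonic and fetal globins Hbe2 and Hbg1 were listed at 0 in all 9 libraries and Hbz in 8, and Hbe1 was listed at 0.44, 0.15 and 0.59 FPKM in CPIP 2, CPIP+EA 2 and CPIP+EA 3 and at 0 in the others.

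Of the 16 membrane and surface genes, 9 had Sham 2 and CPIP+EA 3 as their 2 highest libraries, and 9 were highest in Sham 2 against 1 in CPIP+EA 3. Their sum hardly varied, 285.0 to 349.3 FPKM, and its most abundant genes, Dmtn (72.33 to 94.74 FPKM) and Add2 (47.47 to 65.89 FPKM) of the membrane skeleton, were lowest in CPIP+EA 3. Rhd and Kel, blood group proteins, and Ermap, also of the erythroid surface, were chosen after their values were seen. They had 6.46, 2.64 and 3.61 FPKM in Sham 2 and 4.95, 2.60 and 2.25 in CPIP+EA 3. These 3 genes were each higher in Sham 2 than in CPIP+EA 3. The membrane skeleton gene Ank1 was the only one of the 16 with an unadjusted p under 0.05, in CPIP+EA vs Sham (log2 fold change -0.36, limma adjusted p of 0.37), and 0 of 16 passed the test in any comparison.

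Of the 11 transcription factors and regulators of erythroid cells, 8 were highest in Sham 2 and 3 in CPIP+EA 3. Lmo2, a partner in the Gata1 complex that endothelial cells also express, had 6.75 (Sham 2) to 12.15 FPKM (CPIP+EA 3), and Zfpm1, a cofactor of Gata1, had 4.70 to 7.59 FPKM. Zfpm1 was lower without overlap in CPIP than in Sham (log2 fold change -0.19, limma adjusted p of 0.78) and in CPIP+EA than in Sham (-0.34, unadjusted p of 0.020, limma adjusted p of 0.30). Gata1, picked with its values in view, had 0.20, 1.73 and 0.46 FPKM in Sham, 0.20, 0 and 0.10 in CPIP, with 0, 0.42 and 0 in CPIP+EA. It was thus highest in Sham 2 and listed at 0 in CPIP+EA 3, where Klf1 was at 4.48 FPKM. Its unadjusted p between CPIP and Sham was 0.045 (log2 fold change -0.95, limma adjusted p of 0.56).

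Enzymes of heme synthesis other than Alas2 work in all cells. The 13 genes of heme synthesis and iron uptake summed to 216.1 to 256.5 FPKM, and the most abundant, the transferrin receptor Tfrc (44.54 to 57.78 FPKM) and the heme enzyme Urod (43.07 to 52.24 FPKM), varied 1.30-fold and 1.21-fold. Even so, 7 of the 13 had Sham 2 and CPIP+EA 3 as their 2 highest libraries. Of the 14 red cell enzymes and maturation genes, Prdx2 (359.58 to 417.37 FPKM), which is also expressed in neurons, was the most abundant. Car1, the red cell carbonic anhydrase, picked with its values in view, had 14.23 FPKM in Sham 2, 7.40 in CPIP+EA 3 and between 1.08 and 4.15 in the others. In these 2 lists 0 of 13 and 0 of 14 genes passed the test.

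Genes of other marrow and blood cells were summed by list in the same libraries. The 16 genes of neutrophil precursor granules had 40.88, 177.6 and 76.74 FPKM in Sham, 105.8, 171.1 and 26.69 in CPIP, with 43.97, 117.8 and 394.6 in CPIP+EA, and 14 of the 15 tested were highest in CPIP+EA 3. The defensins Defa5 and Np4 were the most abundant, with 82.07 and 79.57 FPKM in CPIP+EA 3 and 43.49 and 43.25 in Sham 2. The 10 genes of mature neutrophils summed to 44.82, 127.3 and 97.49 FPKM in Sham, 129.3, 215.0 and 28.54 in CPIP, with 58.89, 147.4 and 533.6 in CPIP+EA, led by S100a9 and S100a8. In this list CPIP 1, CPIP 2 and CPIP+EA 2 also stood above Sham 2. The ratio of Sham 2 to CPIP+EA 3 was 0.239 for mature neutrophils against 0.45 for the granule genes and 0.664 for the 9 erythroid genes. In the granule list Ltf was listed at 0 in 8 libraries.

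Eosinophil genes, 6 in the table, summed to 9.36 FPKM in Sham 1, 78.26 in Sham 2 and 128.5 in CPIP+EA 3, with Prg2 (5.93, 55.25 and 93.83 FPKM in the same libraries) and Prg3 the most abundant. Genes of megakaryocytes and platelets summed to 31.41 FPKM in Sham 2 and 39.29 in CPIP+EA 3 and to between 9.24 and 11.81 in the other 7 libraries. The platelet chemokine Pf4 had 18.24 and 25.01 FPKM in these 2 and 5.94 to 9.28 elsewhere, and Ppbp 4.35 and 4.77 FPKM against at most 0.77 elsewhere, with 3 libraries at 0. Of the B cell precursor genes, 7 of 12 had Sham 2 and CPIP+EA 3 as their 2 highest libraries, among them Cd79a (6.80 and 8.38 FPKM), while Ebf1, which other cells also express, had 17.78 to 22.94 FPKM. Vpreb1, of the pre-B cell receptor, was listed at 0 in 3 libraries, and Vpreb2, Vpreb3 and Igll1, of the same receptor family and chosen after their values were seen, in none. The T cell list summed to 14.81 to 19.96 FPKM, of which Cd4, which rat macrophages also express, had 12.65 to 17.55 FPKM. Lck had 0.61 to 0.93 FPKM, and Cd5 was listed at 0 in 8 libraries, so the sum says little of T cells.

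The 12 genes of cell division summed to 19.07, 37.11 and 22.86 FPKM in Sham, 20.25, 24.03 and 18.19 in CPIP, with 17.85, 23.96 and 39.52 in CPIP+EA. For 11 of the 12 the 2 highest libraries were Sham 2 and CPIP+EA 3, and the ratio of these 2 was 0.939. Mki67, picked with its values in view, had 4.30 FPKM in Sham 2, 3.62 in CPIP+EA 3 and 0.95 to 1.89 elsewhere. Tyms and Rrm2, the most abundant, had 6.31 and 4.63 FPKM in Sham 2 and 5.12 and 6.41 in CPIP+EA 3, and Tyms was the exception, as Sham 3 had 5.21. None of the 12 was called, and 1, Birc5, had an unadjusted p under 0.05, between CPIP and Sham (log2 fold change -0.58, limma adjusted p of 0.37) and between CPIP+EA and CPIP (0.47, limma adjusted p of 0.996).

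Bone, muscle and fat were read as neighbors of the ganglion. The 13 bone and cartilage genes summed to 62.03 FPKM in Sham 2, 45.99 in CPIP 2, 35.58 in CPIP 1 and 29.19 in CPIP+EA 3, and to between 13.74 and 20.87 in the other 5 libraries. By gene, 5 of the 11 tested were highest in CPIP 2, 2 in Sham 2 and 0 in CPIP+EA 3. Sham 2 and CPIP+EA 3 were the 2 highest libraries for 0 of the 11. Bglap, the osteocalcin of bone-forming cells, had 1.45, 41.62 and 2.29 FPKM in Sham, 11.40, 16.21 and 1.07 in CPIP, with 3.29, 6.89 and 10.82 in CPIP+EA. It made up most of the sum of the list in Sham 2. Its level was 38.9-fold higher in Sham 2 than in CPIP 3, and Sham 2 was above CPIP+EA 3, unlike for Hbb and Hba1. The cartilage gene Col2a1 had another order, with 16.25 FPKM in CPIP 1 the highest and 4.32 in CPIP+EA 1 the lowest. Skeletal muscle genes were highest in CPIP 2 in 10 of 10 tested genes, with a sum of 184.7 FPKM there, 15.17 in Sham 2 and 54.04 in CPIP+EA 3, so their order was not that of the erythroid genes. Acta1, the actin of skeletal muscle, had 42.81 FPKM in CPIP 2 and at most 13.15 elsewhere. In the fat cell list, whose sum was 20.87 to 41.58 FPKM, Cidec was the one gene called in any of the lists, with 0.073 ± 0.035 FPKM in Sham and 0.653 ± 0.116 in CPIP+EA (SD, n = 3 each, log2 fold change 1.01, limma adjusted p of 0.0080). CPIP rats without EA had 0.52, 0.71 and 0.45 FPKM of Cidec, so a level of this size was not limited to CPIP+EA. All values of Cidec were low, at most 0.73 FPKM.

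The tissue label was checked with genes of the ganglion itself. Sensory neuron genes summed to 2839 (CPIP+EA 3) to 3604 FPKM (Sham 1), with Prph at 919.91 to 1365.05 and Nefh at 867.79 to 1390.46 FPKM, and none of the 9 was listed at 0. Schwann and satellite glia genes summed to 5013 (CPIP+EA 1) to 10960 FPKM (CPIP 1), with Pmp22 at 1343.48 to 3018.31 FPKM. Endothelial genes, of vessel walls, summed to 58.20 (Sham 2) to 86.70 FPKM (CPIP+EA 3), led by Cldn5 and Emcn. The 2 libraries with the most erythroid RNA therefore had the lowest and the highest endothelial sum, and CPIP+EA 3 had the lowest neuronal sum. In such bulk samples, fewer cells of a type and less RNA per cell cannot be told apart. The part that the amounts of marrow, blood, bone, muscle, neuronal and glial RNA had in the levels of the 9 genes was not tested.

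**Figure D5:**
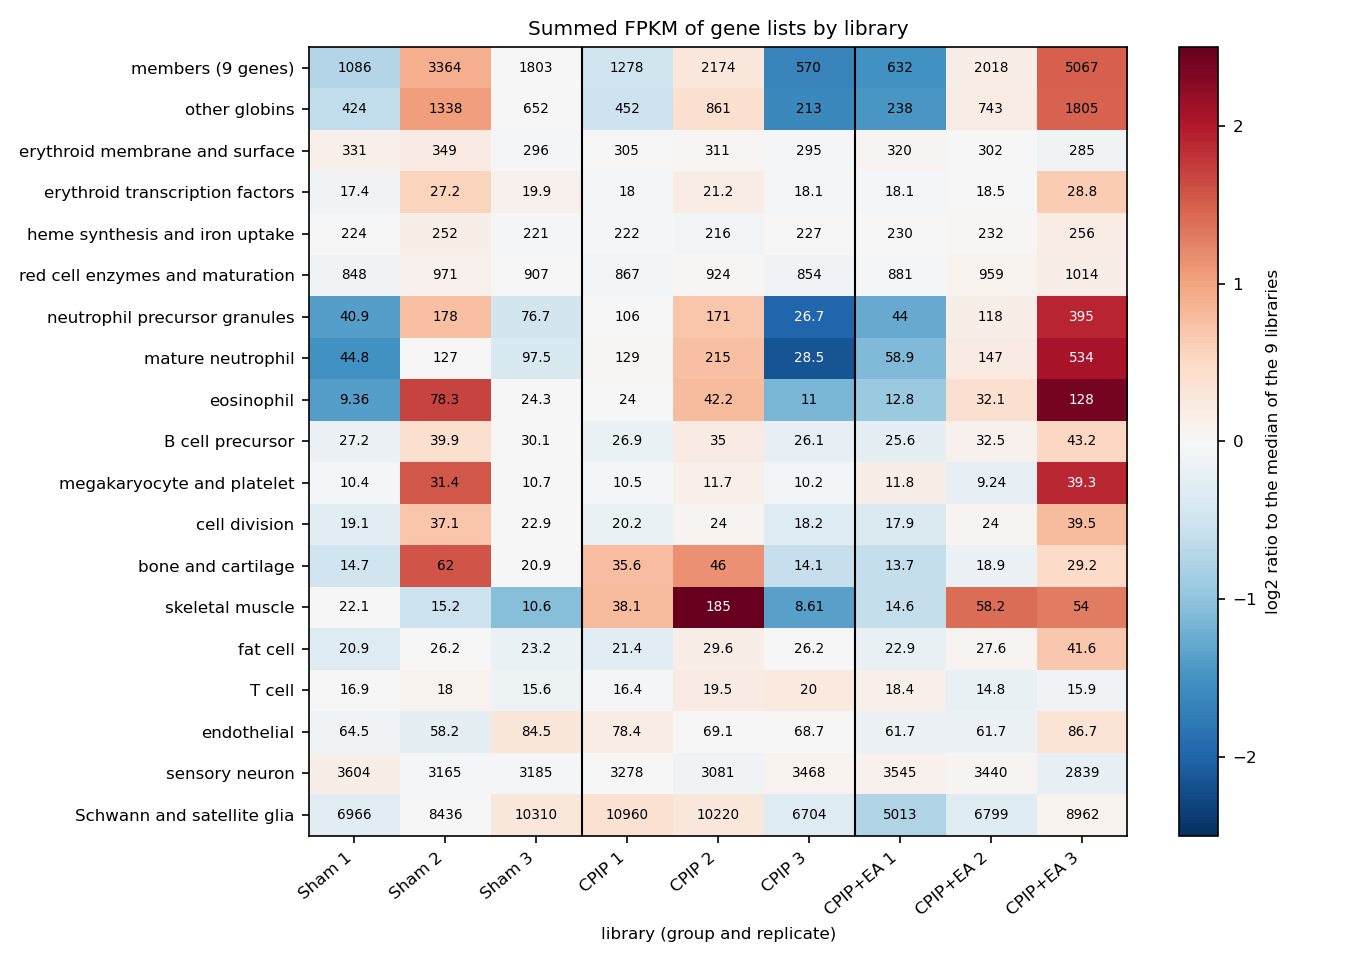
Summed FPKM of the 9 erythroid genes and of 18 other gene lists (rows) in the 9 libraries (columns), with the sum in each cell and the color giving the log2 ratio to the median of the row. Sham 2 and CPIP+EA 3 are high for the 9 erythroid genes (3364 and 5067), eosinophils (78.3 and 128), megakaryocytes and platelets (31.4 and 39.3) and cell division (37.1 and 39.5), and skeletal muscle is highest in CPIP 2 (185).

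Among 13771 genes outside the lists with a mean of at least 1 FPKM, the 10 whose levels over the 9 libraries were most like the mean z-score of the 9 genes had a Pearson r of 0.954 to 0.985, which describes 9 libraries in 3 groups. They were Mcm3, Pttg1, Fermt2, Cdca3, Fcna, Mlec, Gmnn, Mcm2, Kifc1 and RGD1565355. Mcm3 (r of 0.985), a subunit of the helicase of DNA replication, had 2.78 FPKM in Sham 2, 3.18 in CPIP+EA 3 and 1.06 to 1.98 in the other 7 libraries. Pttg1, securin, had 3.09 and 3.90 FPKM in Sham 2 and CPIP+EA 3 against 0.88 to 1.94, and Cdca3 had 2.96 and 3.91 against 0.50 to 1.81. Mcm2 and Gmnn of DNA replication and the mitotic kinesin Kifc1 were also among the 10. Fermt2 and Mlec were much more abundant and varied little, with 58.80 to 70.07 and 52.60 to 63.35 FPKM. RGD1565355 had the steepest course, from 0.18 FPKM in CPIP+EA 1 to 3.61 in Sham 2.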

How the data were processed

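RNA-Seq was carried out by the authors on polyA-selected RNA of 9 rat DRG libraries with reads of 50 bases, filtered with SOAPnuke 1.5.2. The deposited table holds 1 FPKM for each gene in each library, rounded by the authors to 2 decimals. The aligner, genome build and annotation are not given in the sources used here. The table also has 9 columns of the authors' own comparisons (log2 ratios, P-values and Q-values), which were not used. Read counts are not in the table, so precision rests on the spread between libraries within the groups. The FPKM of a library summed to between 445647 and 482940.

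The log2 of FPKM + 0.5 was tested in limma 3.58.1 (R 4.3.3, mean-variance trend, all 9 libraries in 1 fit, no covariate) for the 17187 genes whose mean FPKM reached 0.1, two-sided, with Benjamini-Hochberg adjustment over all of them. The fit was tested on simulated data. Fold changes on this scale understate the change of low genes. The p-values set a difference between groups against the spread between single rats within groups. This spread was pooled over the groups and drawn toward a trend over all genes tested. Tables and figures used Python 3.11.15, numpy 2.4.6, pandas 2.3.3 and matplotlib 3.10.9. Letters before start sites came from RefSeq (GRCr8), matched by gene ID.

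The 9 genes and the marker lists were chosen with earlier results of these data known. Named were the 9 genes, and of each list the genes that passed the threshold or, where none did, the 2 with the highest mean FPKM, and the 10 genes most like the 9. A few genes that this rule names are not reported here. Any other gene is said to be chosen after its values were seen, or named because few genes met a count. Alternatives were pseudocounts of 0.1 and 1, filters of none and of mean FPKM 1, quantile normalization, median centring, a TPM scale, other variance models, only the 2 groups compared, an adjusted p under 0.05, the replicate number as a block, summed globin copies, each library left out in turn and, added after seeing the data, Sham 2 and CPIP+EA 3 left out together.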

Additional observations from a re-analysis of the deposited data

How the results depend on the processing

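In every alternative for which calls were counted, which leaves out the summed globin copies, 0 of the 9 genes and 0 of the other erythroid genes tested (52 to 66, by filter and libraries) were called in any comparison. Over the alternatives, the limma adjusted p of the 9 genes lay between 0.694 and 1 for CPIP vs Sham, 0.698 and 1 for CPIP+EA vs CPIP, and 0.602 and 1 for CPIP+EA vs Sham. Of 191 values of log2 fold change per comparison, 10, 10 and 33 had the opposite sign. With Sham 2 and CPIP+EA 3 left out together, chosen after seeing the data, CPIP vs Sham was 0.00485 for Slc4a1, 0.244 for Ahsp, 0.0435 for Hemgn, 0.0448 for Klf1 and 0.0778 for Rhag. CPIP+EA vs CPIP was then -0.0067 for Hbb, -0.0714 for Hba1, -0.108 for Slc4a1, -0.188 for Ahsp and -0.126 for Hemgn, and CPIP+EA vs Sham was -0.344 for Hbb and -0.126 for Alas2. CPIP+EA vs Sham was also -0.026 (Hbb) and -0.00371 (Rhag) with quantile normalization, -0.00908 (Hbb), -0.0176 (Alas2) and -0.00749 (Rhag) on the TPM scale, and -0.00241 for Hbb summed with its copies. With each library left out in turn, CPIP vs Sham ranged from -1.18 to 0.00485 for Slc4a1, -1.14 to 0.244 for Ahsp, -1.28 to 0.0435 for Hemgn, -0.711 to 0.0448 for Klf1 and -0.668 to 0.0778 for Rhag. CPIP+EA vs CPIP ranged from -0.0067 to 1.61 for Hbb, -0.0714 to 1.34 for Hba1, -0.108 to 1.28 for Slc4a1, -0.188 to 1.46 for Ahsp and -0.126 to 1.29 for Hemgn. CPIP+EA vs Sham ranged from -0.75 to 0.869 for Hbb, -0.716 to 0.697 for Hba1, -0.576 to 0.69 for Alas2, -0.793 to 0.597 for Slc4a1, -0.697 to 0.948 for Ahsp, -0.857 to 0.644 for Hemgn, -0.408 to 0.549 for Klf1, -0.484 to 0.43 for Epb42 and -0.395 to 0.508 for Rhag. The highest and lowest of these values came without Sham 1, Sham 2, Sham 3, CPIP+EA 1 or CPIP+EA 3. The causes were not tested beyond the libraries left out. Deviations from the group means had an r of -0.236 to 0.297 between same-numbered libraries of different groups. Between differently numbered libraries it was -0.223 to 0.28. Such values cannot show whether libraries shared a batch, which was not tested. With the replicate block the median log2 fold change was -0.644, 0.6 and 0.018 in the 3 comparisons, as without it, with 0 genes called.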
